A study of Mus musculus with 12 samples.

Results

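The adipocyte genes are 32 genes that fat cells are known to express, chosen by name with earlier results of these data known. All 32 were found among the 22630 genes in the 12 expression files. They were examined in 12 subcutaneous tumors grown from KCip53-1 cells. The question put to the data was how much adipocyte RNA each tumor contained and whether it differed with doxycycline (dox). KCip53-1 is a mouse pancreatic cancer line sorted for dsRed from a single primary tumor of a mouse whose alleles included Ptf1a-Cre, TREp53R270H and R26rtTa. Ptf1a-Cre acts in the pancreatic epithelium, wild-type p53 is lost in the line, and dox switches on mutant p53R270H and dsRed in the tumor cells. All 3 groups share this genotype, the NSG host, which lacks lymphocytes but keeps its own fat, stroma, vessels and macrophages, and the host age of 8 to 10 weeks. Each tumor was started from 500000 cells injected under the skin and grew to 1.5 cm. The no-dox tumors (n = 4) were never exposed to dox. The plus-dox tumors (n = 4) came from mice given dox for 36 days at 0.2 g/l in 5% sucrose water, and the off-dox tumors (n = 4) from mice given the same water for 33 days and then none for 3 days. Unsorted tumor tissue was sequenced, so tumor and host transcripts are mixed. Each mouse carried 2 tumors, and which tumors shared a mouse was not given, so p-values that treat tumors as independent may be too small and measure only the spread between these tumors.

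White adipocytes store triglyceride in a single large lipid droplet. Their identity is set by the transcription factors PPARγ and C/EBPα, which switch on the genes for fatty acid uptake, triglyceride synthesis, droplet coating and hormone secretion. Several of these enzymes also work in liver, muscle and epithelium, whereas adiponectin (Adipoq), perilipin 1 (Plin1) and leptin (Lep) are close to fat-specific. The subcutis in which these tumors grew is itself a fat layer. Levels are given below as RPKM, reads per kilobase of exonic length scaled to the mapped reads of the library. RPKM carries no correction for differences in library composition, which the edgeR fits and log2 CPM values below have (TMM).

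Each library held 19845923 to 33137609 counted reads, and the adipocyte genes took between 0.0346% (95% exact binomial interval 0.0339 to 0.0352%) of them in plus-dox tumor 3 and 0.255% (0.253 to 0.257%) in no-dox tumor 1. Intervals and detection floors cover counting error only. In RPKM, the 10 epithelial markers summed to between 1079 and 3137 per tumor and the 12 skeletal muscle markers to between 12.4 and 1541. Xist was at 4.25 and 4.89 RPKM in plus-dox tumors 3 and 4 and at 0.0485 RPKM or less in the other 10 tumors. Plus-dox tumors 3 and 4 were also the lowest and the highest of their group for Adipoq. The study ordered NSG mice of both sexes. The host sex of each tumor was not given in the sources used here, and its part in the results was not tested. Trp53 was at 40.1 to 57.4 RPKM in the no-dox, 40.4 to 56.0 RPKM in the plus-dox and 41.6 to 45.4 RPKM in the off-dox tumors. The plus-dox range thus lay within the no-dox range, and no rise on dox was seen in total Trp53. The transgene cannot be told apart from the endogenous gene in these counts.

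Fat-specific transcripts were present in most tumors, at levels that differed far more between tumors of a group than between groups. Adipoq, the most fat-specific secreted hormone of the list (mm9 chr16:23146609-23158041, plus strand), was at 57.35, 3.26, 42.4 and 0.110 RPKM in no-dox tumors 1 to 4. It was at 26.8, 20.3, 0.353 and 39.5 RPKM in the plus-dox tumors and at 0.959, 12.4, 6.95 and 22.6 RPKM in the off-dox tumors. Each group thus held at least 1 tumor with little Adipoq and at least 1 with much, and the groups overlapped fully. Within the no-dox group the highest Adipoq level was 524 times the lowest, and within the plus-dox group 112 times. In no-dox tumor 4 the gene had 5 counts, against a floor of 3 counts, which there corresponds to 0.0657 RPKM.

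**Figure D1:**
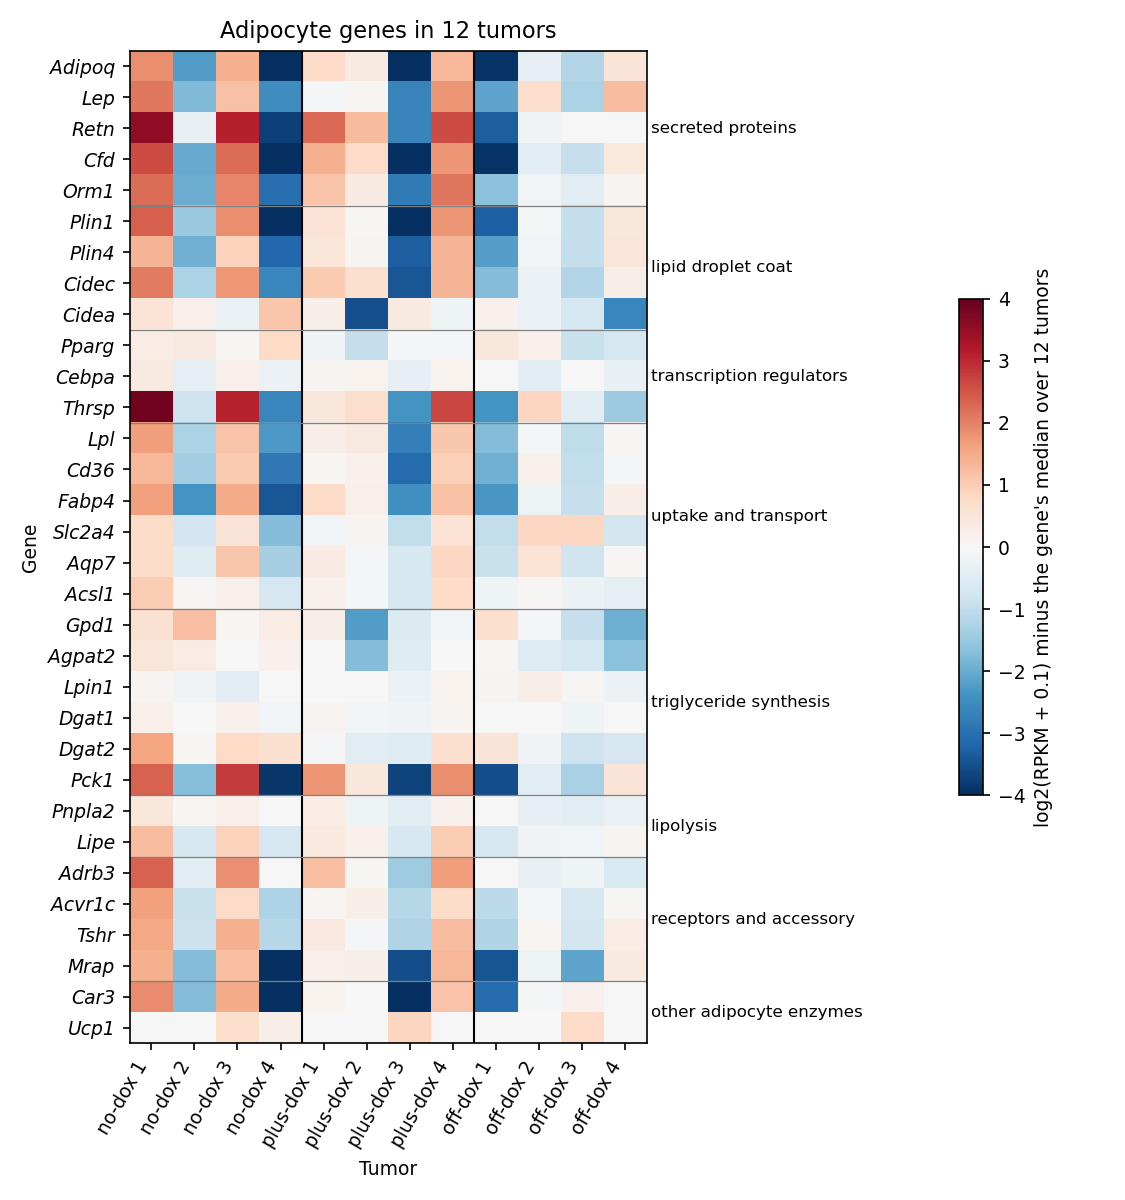
Level of the 32 adipocyte genes (rows, grouped by role) in the 12 tumors (columns, vertical lines between groups), as log2(RPKM + 0.1) minus the median of each gene over the tumors. No-dox tumor 4, plus-dox tumor 3 and off-dox tumor 1 are low for most rows of the secreted, droplet coat and uptake groups, while Cidea, Gpd1 and Agpat2 are lowest in plus-dox tumor 2 and off-dox tumor 4.

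Of the other defining markers, Plin1 ranked the 12 tumors exactly as Adipoq did, Cidec and Lep did so with a few exchanges, and Adrb3 departed from that order. Plin1, which coats the droplet and gates its lipases (mm9 chr7:86866050-86877662, minus strand), was at 14.8, 0.915, 10.1 and 0.0141 RPKM in the no-dox tumors. Its plus-dox levels were 4.14, 2.83, 0.0426 and 9.51 RPKM, and its off-dox levels 0.191, 2.61, 1.36 and 3.78 RPKM. The lowest of these values rest on 1 count in no-dox tumor 4 and 3 counts in plus-dox tumor 3. Cidec, a droplet fusion protein (mm9 chr6:113374630-113385749, minus strand), was at 35.8, 3.45, 28.5 and 1.30 RPKM without dox, at 17.6, 13.4, 0.703 and 21.8 RPKM on dox, and at 2.46, 7.23, 3.69 and 9.87 RPKM after dox removal. The ranges of all 3 groups overlapped for both genes. Lep, the satiety hormone (mm9 chr6:29010221-29023876, plus strand), was scarcer, at 2.88, 0.102, 1.45 and 0.0248 RPKM in the no-dox tumors. It was at 0.579, 0.609, 0.00835 and 2.24 RPKM in the plus-dox and at 0.0625, 1.03, 0.191 and 1.52 RPKM in the off-dox tumors. Adrb3, the β3-adrenergic receptor through which catecholamines start lipolysis (mm9 chr8:28336248-28340060, minus strand), was at 2.20, 0.226, 1.48 and 0.343 RPKM without dox and at 0.931, 0.360, 0.0681 and 1.32 RPKM on dox. In the off-dox tumors it was at 0.350, 0.266, 0.292 and 0.191 RPKM, without the high tumors that the other groups had, and off-dox tumor 4, the richest of its group in Adipoq, had the least Adrb3.

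The promoters of Adipoq, Plin1, Cidec and Lep are shown because these genes varied together from tumor to tumor. The sequences are from RefSeq on GRCm38.p6, another build than the mm9 of the expression files, and run from 250 bases before to 50 bases after a transcription start. Capitals in Lep, Plin1 and Cidec mark TTGCNNAA, a core that C/EBP factors are known to bind, and capitals in Adipoq mark CCAAT, each searched on both strands. Lep chr6:29059971-29060270 is on the plus strand, Plin1 chr7:79732727-79733026 and Cidec chr6:113434715-113435014 on the minus strand, and Adipoq chr16:23146286-23146585 on the plus strand.
Lep: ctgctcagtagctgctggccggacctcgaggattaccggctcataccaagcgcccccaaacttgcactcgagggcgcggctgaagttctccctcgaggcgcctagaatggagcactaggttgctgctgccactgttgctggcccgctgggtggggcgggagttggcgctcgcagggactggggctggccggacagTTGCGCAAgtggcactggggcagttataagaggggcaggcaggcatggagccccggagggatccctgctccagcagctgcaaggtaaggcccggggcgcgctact
Plin1: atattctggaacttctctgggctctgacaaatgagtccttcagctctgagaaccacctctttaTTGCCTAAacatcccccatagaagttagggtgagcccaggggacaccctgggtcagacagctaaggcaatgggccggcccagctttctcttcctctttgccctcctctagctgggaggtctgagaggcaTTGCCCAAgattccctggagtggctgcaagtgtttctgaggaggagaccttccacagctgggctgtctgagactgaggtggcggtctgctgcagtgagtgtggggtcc
Cidec: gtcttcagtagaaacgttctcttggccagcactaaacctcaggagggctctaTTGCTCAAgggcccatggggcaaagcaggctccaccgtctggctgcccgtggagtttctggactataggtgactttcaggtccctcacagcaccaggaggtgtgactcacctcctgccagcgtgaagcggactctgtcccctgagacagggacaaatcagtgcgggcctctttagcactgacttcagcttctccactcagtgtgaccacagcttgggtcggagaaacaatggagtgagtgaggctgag
Adipoq: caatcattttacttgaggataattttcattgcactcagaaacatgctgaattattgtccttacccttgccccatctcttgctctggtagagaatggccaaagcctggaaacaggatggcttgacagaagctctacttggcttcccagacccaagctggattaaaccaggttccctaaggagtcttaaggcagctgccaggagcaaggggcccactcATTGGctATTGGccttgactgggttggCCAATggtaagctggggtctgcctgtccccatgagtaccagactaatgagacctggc

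Promoters of 20 of the 32 genes were matched, 27 sequences in all. TTGCNNAA occurred in 4 of these 27, from Cidec, Lep, Plin1 and Pparg, and in 10.8% of all 32851 promoters of that length. RefSeq gives Cidec another promoter, chr6:113435711-113436010 on the minus strand, which has no such match. The Lep match lies 55 bases before the start and has the full palindrome TTGCGCAA, which 0.183% of all promoters hold. CCAAT occurred in 7 of the 27, from Acsl1, Adipoq, Cd36, Plin4, Pparg and Thrsp, and in 37.4% of all promoters. The nuclear receptor hexamer AGGTCA was in 7 of the 27, from Aqp7, Cd36, Lpin1, Pparg and Ucp1, against 16.3% of all promoters. A direct repeat of AGGNCA with 1 base between, the type of element PPARγ is known to use, was in none of the 27 and in 0.381% of all promoters. TTGCGCAA is a special case of TTGCNNAA, and AGGTCA of AGGNCA, so these matches overlap. A match is a description of letters, not evidence of binding.

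**Figure D2:**
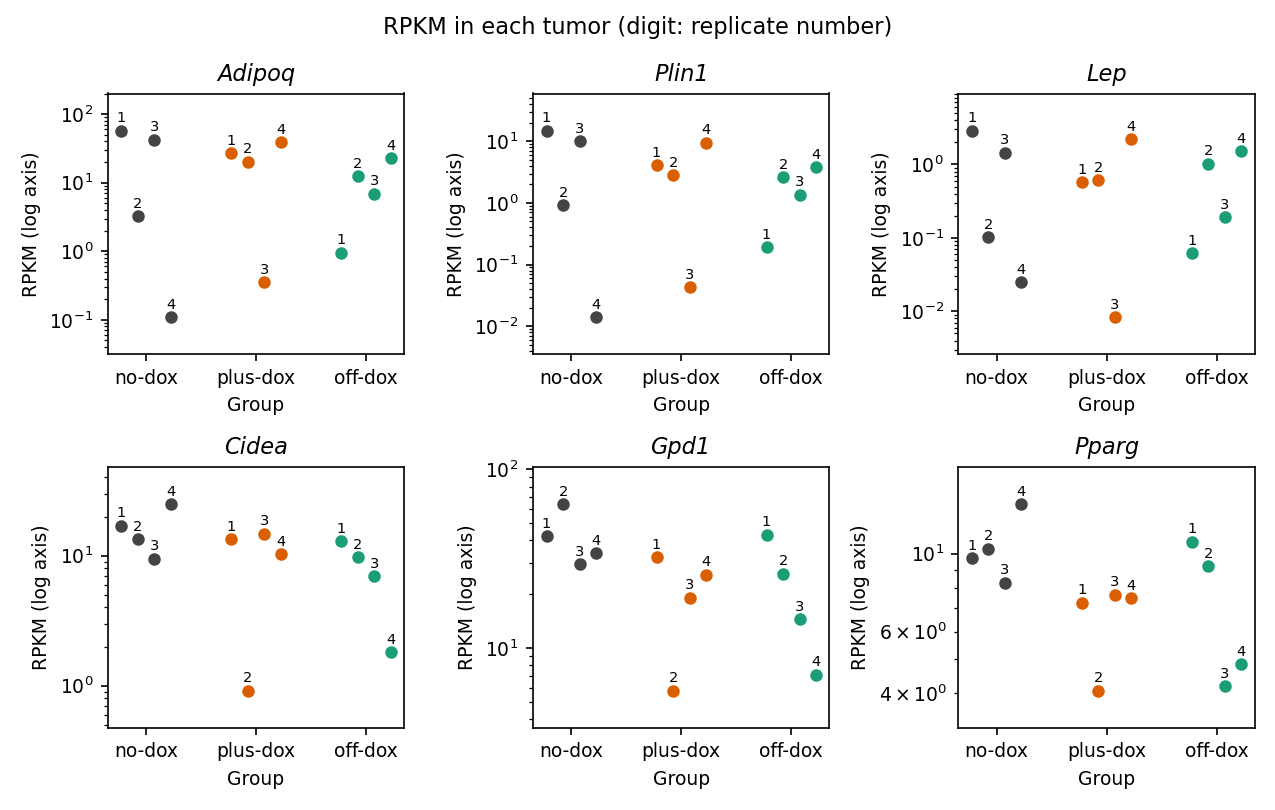
RPKM (log axis) of 6 adipocyte genes in each tumor, with the replicate number beside each point and the groups on the horizontal axis. Adipoq, Plin1 and Lep spread over more than an order of magnitude in each group, with no-dox tumor 4, plus-dox tumor 3 and off-dox tumor 1 lowest, while Cidea and Gpd1 are lowest in plus-dox tumor 2 and off-dox tumor 4 and Pparg in plus-dox tumor 2.

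Among the secreted proteins, Cfd (adipsin) reached the highest single level of the whole list, 580 RPKM in no-dox tumor 1, and fell as low as 1.11 RPKM in no-dox tumor 4. Cfd was below the fatty acid carrier Fabp4 in every off-dox tumor, and also in no-dox tumors 2 and 4 and plus-dox tumor 3. Retn, the hormone resistin, was at 18.6, 1.21, 13.7 and 0.0210 RPKM in the no-dox tumors and at 7.64, 3.77, 0.155 and 9.64 RPKM in the plus-dox tumors. In the off-dox tumors Retn was at 0.0633, 1.35, 1.54 and 1.48 RPKM, so no off-dox tumor came near the 4 highest tumors of the other groups. Orm1, an acute phase protein, ran from 0.141 to 9.02 RPKM, with the caution that its near-identical Orm paralogs may share reads. Among the droplet coat genes, Plin4 ran from 0.268 to 9.29 RPKM.

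Among the uptake genes, Fabp4, Lpl and Cd36 were low and high in much the same tumors as Adipoq but did not come near 0 in any of them. Fabp4, a cytosolic fatty acid carrier also known in endothelium and macrophages, was at 11.6 RPKM in no-dox tumor 4, where Adipoq was at 0.110, and reached 391 RPKM in no-dox tumor 1. Lpl, which frees fatty acids from lipoproteins, ran from 1.995 to 43.8 RPKM, and Cd36, a fatty acid translocase, from 1.01 to 23.1 RPKM. Acsl1, which activates fatty acids, varied less, from 3.41 to 11.3 RPKM. Slc2a4, the insulin-dependent glucose transporter of fat and muscle, was highest in off-dox tumors 2 and 3, at 1.77 RPKM in both, and was at 0.532 RPKM in off-dox tumor 4, where Adipoq was higher. These are also the tumors with the highest muscle marker sums, 1012 and 1541 RPKM. Aqp7, the glycerol channel, stayed between 0.0214 and 0.565 RPKM, and its lowest value, in no-dox tumor 4, rests on 2 counts, under the floor of 3.

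The triglyceride synthesis and lipolysis genes were mostly expressed in every tumor, whatever its Adipoq level. Dgat1 and Dgat2 encode the enzymes that add the last acyl chain. Dgat1 was nearly even, from 10.1 to 13.1 RPKM over the 12 tumors. Dgat2 was at 17.3, 5.86, 9.91 and 8.88 RPKM in the no-dox tumors, 5.58, 4.21, 3.94 and 8.90 RPKM in the plus-dox tumors, and 8.30, 5.21, 3.14 and 3.59 RPKM in the off-dox tumors. The highest value belonged to a never-exposed tumor, but no-dox tumor 2 lay within the range of both other groups. Lpin1, a phosphatidate phosphatase, was also even, from 2.24 to 3.63 RPKM. Agpat2, which makes phosphatidate, ran from 9.79 to 45.9 RPKM and was low in plus-dox tumor 2 and off-dox tumor 4. Gpd1, which supplies glycerol 3-phosphate, was at 42.2, 63.7, 29.5 and 33.9 RPKM without dox, 32.4, 5.78, 19.1 and 25.7 RPKM on dox, and 43.1, 26.1, 14.5 and 7.08 RPKM after removal. Its low tumors were the ones low in Agpat2, not the ones low in Adipoq. Pck1, the enzyme of glyceroneogenesis, behaved like Adipoq instead, from 0.0516 RPKM in no-dox tumor 4 to 15.5 RPKM in no-dox tumor 3. Pnpla2, the adipose triglyceride lipase, was at 30.5, 23.7, 26.0 and 22.8 RPKM in the no-dox tumors, 27.4, 19.3, 16.4 and 25.2 RPKM in the plus-dox tumors, and 22.1, 18.0, 16.8 and 18.7 RPKM in the off-dox tumors. Every off-dox tumor was below every no-dox tumor for Pnpla2, but 11.4% of all genes also had no overlap between these 2 groups. Lipe, hormone-sensitive lipase, ran from 3.65 to 14.1 RPKM.

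The 3 regulators differed among themselves. Pparg was at 9.70, 10.3, 8.26 and 13.8 RPKM in the no-dox tumors, 7.26, 4.08, 7.64 and 7.47 RPKM in the plus-dox tumors, and 10.8, 9.21, 4.20 and 4.85 RPKM in the off-dox tumors. It was highest in no-dox tumor 4, the tumor with the least Adipoq, and every plus-dox tumor was below every no-dox tumor. Cebpa stayed between 9.56 and 17.1 RPKM. Thrsp, a regulator of lipid synthesis, ran from 0.0780 RPKM in no-dox tumor 4 to 15.8 RPKM in no-dox tumor 1. It followed Adipoq only in part. Off-dox tumor 4, the richest of its group in Adipoq, had 0.298 RPKM of Thrsp, below the 0.511 RPKM of no-dox tumor 2.

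Of the remaining genes, Car3, a carbonic anhydrase of fat and muscle, ran from 0.972 to 253 RPKM and Mrap, a melanocortin receptor accessory protein, from 0.0544 to 6.43 RPKM. Acvr1c, an activin receptor, and Tshr, the thyrotropin receptor, did not exceed 0.635 and 0.575 RPKM. Ucp1, the uncoupling protein of brown fat, had 0 to 5 counts per tumor and at most 0.0827 RPKM. Elovl3, another brown fat marker, was at 0.126 RPKM or less, so Ucp1 and Elovl3 were at or near 0 in every tumor. Not all brown fat markers were this low. Cox8b reached 14.36 RPKM in off-dox tumor 3, Otop1 3.753 RPKM in no-dox tumor 3 and Prdm16 3.132 RPKM in off-dox tumor 1. Cox7a1 was at 9.601 RPKM or more in every tumor. Cox8b and Cox7a1 were both highest in off-dox tumors 3 and 2, which had the highest skeletal muscle marker sums. Cox8b was at 0.07431 RPKM or less in no-dox tumor 4 and off-dox tumor 4, which had the lowest sums (12.39 and 14.62 RPKM). These levels are therefore no sign of brown fat by themselves, and which cells made these transcripts was not tested. Cidea, a droplet protein of brown fat that some epithelia also express, was at 17.0, 13.4, 9.48 and 24.9 RPKM without dox, 13.5, 0.918, 14.8 and 10.3 RPKM on dox, and 12.9, 9.73, 6.97 and 1.81 RPKM after removal. Its level was thus highest in no-dox tumor 4, where Adipoq, Plin1 and Lep were at their floor or close to it. Libraries were not strand-specific, and Cidea, Lipe, Acvr1c and Tshr overlap another annotated gene, so their reads cannot be told apart from those of B430212C06Rik, 4732471J01Rik, Gm13544 and Bc1 where the models share bases.

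A set of 13 adipocyte genes rose and fell with Adipoq over the 12 tumors on a log scale. The correlation of log2 CPM (counts scaled to the TMM-corrected library size) with Adipoq was measured for the 27 other members with a mean RPKM over 0.25. It exceeded 0.9 for 13 of the 27, against 33 of all 14547 genes, or 0.227%. The 33 include these 13. The members were chosen with earlier results of these data known, so the contrast with all genes is a description and not independent support. The 13 were Cfd, Plin1, Car3, Plin4, Cd36, Pck1, Mrap, Fabp4, Lpl, Cidec, Orm1, Retn and Lep. Cfd and Plin1 ranked first and second of all genes. For Cfd, Pearson's r was 0.995 (permutation p = 1e-05, the smallest that 100000 permutations can give, adjusted p = 0.00693 over all genes) and Spearman's rho 0.993 (permutation p = 1e-05). For Plin1, r was 0.993 (permutation p = 1e-05, adjusted p = 0.00693) and rho 1.0 (permutation p = 1e-05). Without the 2 tumors farthest from the Adipoq median, no-dox tumor 4 and plus-dox tumor 3, r was 0.992 for Cfd, 0.983 for Plin1, and between 0.925 and 0.992 over the 13 genes. Within groups, that is, on deviations from group means, r was between 0.954 and 0.998 over the 13. By role, this set held 4 of the 4 other secreted proteins, 3 of 4 droplet coat genes, 3 of 5 uptake genes, 1 of 6 triglyceride synthesis genes and none of the 3 regulators. A high correlation on this scale did not mean a fixed ratio. As a percentage of the Adipoq RPKM of the same tumor, Plin1 ran from 12.1 to 28.05%, whereas Cidec ran from 43.6 to 1187% and Fabp4 from 669 to 10570%, with both highest in no-dox tumor 4, the poorest in Adipoq.

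**Figure D3:**
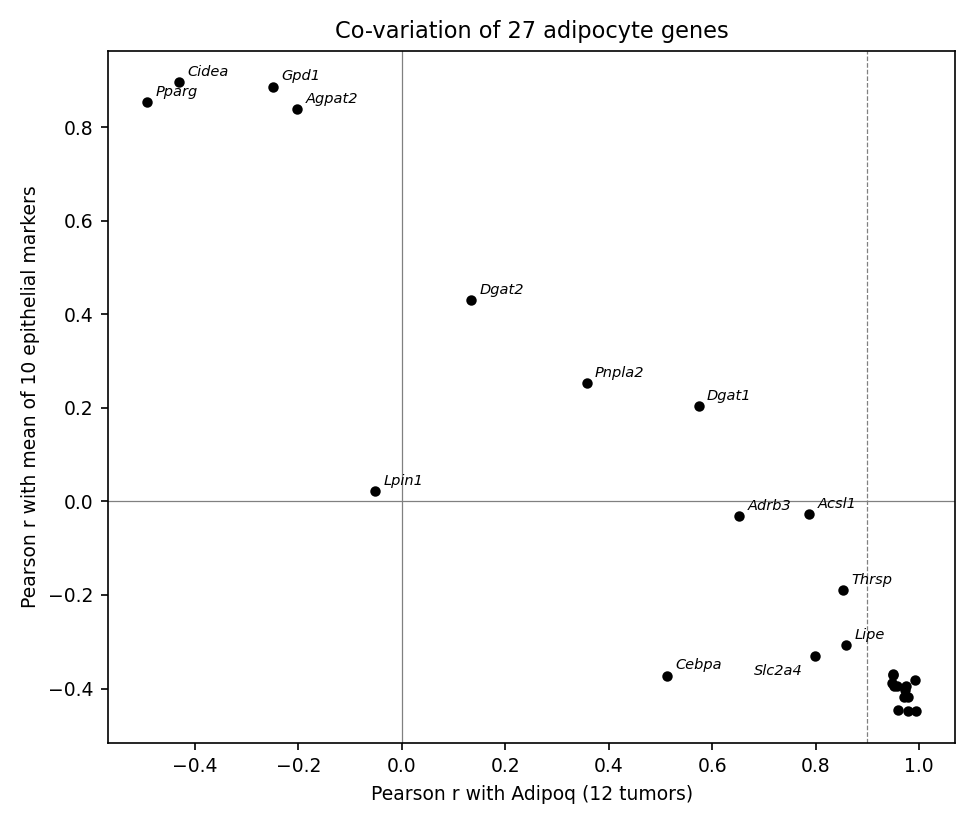
Pearson correlation of log2 CPM over the 12 tumors with Adipoq (horizontal axis) and with the mean of 10 epithelial markers (vertical axis) for 27 adipocyte genes, each a point, with a dashed line at 0.9. A cluster of 13 unlabelled genes sits past 0.9 with Adipoq, and Cidea, Gpd1, Pparg and Agpat2 sit at the upper left with r between 0.839 and 0.896 with the epithelial markers.

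The next nearest members were Lipe (r = 0.860), Thrsp (0.852), Slc2a4 (0.7995) and Acsl1 (0.788), none of which passed an adjusted p of 0.1 over all genes (adjusted permutation p from 0.133 to 0.237). Adrb3, although a fat-restricted receptor, had r = 0.653 (adjusted permutation p = 0.403). Dgat1, Cebpa and Pnpla2 had r of 0.574, 0.514 and 0.357, Dgat2 0.134, and Lpin1 -0.05.

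Cidea, Gpd1, Pparg and Agpat2 had negative correlations with Adipoq, from -0.49 for Pparg to -0.20 for Agpat2, and none was significant (adjusted permutation p from 0.541 to 0.825). These 4 genes followed the epithelial markers instead. Cidea had r = 0.896 with their mean (permutation p = 0.00029, adjusted p = 0.00935 over all genes, rho = 0.608, permutation p = 0.039). Gpd1 had r = 0.887 (permutation p = 0.00013, adjusted p = 0.00628, rho = 0.734, permutation p = 0.0081) and Pparg r = 0.854 (permutation p = 0.00013, adjusted p = 0.00628, rho = 0.860, permutation p = 0.00062). Agpat2 had r = 0.839 (permutation p = 0.0012, adjusted p = 0.0182, rho = 0.671, permutation p = 0.021). Part of this rests on plus-dox tumor 2 and off-dox tumor 4, the tumors with the lowest epithelial means. Without them r was 0.814 for Pparg, 0.681 for Gpd1, 0.545 for Cidea and 0.461 for Agpat2. Which cells made these transcripts was not tested.

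Adipoq itself did not follow other cell types detectably. Its r was -0.47 with the epithelial markers, 0.311 with skeletal muscle, 0.238 with endothelium, 0.395 with macrophages and 0.390 with preadipocytes and fat progenitors. Over these 5 relations the adjusted permutation p was 0.35 to 0.47. Spearman's rho was -0.56, 0.112, 0.364, 0.252 and 0.266 in the same order (permutation p = 0.062, 0.73, 0.25, 0.43 and 0.41), and without the farthest 2 tumors of each marker set r was -0.55, -0.01, 0.640, 0.215 and 0.227. Slc2a4 was the member nearest to the muscle markers, with r = 0.725 (permutation p = 0.0076, adjusted p = 0.239 over all genes, rho = 0.629, permutation p = 0.032, r = 0.495 without no-dox tumor 4 and off-dox tumor 3). The 7 mammary gland markers summed to 3.85 RPKM or less and the 7 skin epidermis markers to between 9.32 and 51.6 RPKM. Brown fat markers, mostly Cidea and Cox7a1, were at 13.5 to 47.3 RPKM, and preadipocyte and progenitor markers at 170.5 to 494.5 RPKM.

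The 10 other genes most like Adipoq, out of all genes with a mean RPKM over 0.25, were Hp, Slc7a10, Apol6, 1100001G20Rik, Abcd2, A530016L24Rik, Adig, Ffar2, Scd1 and Sncg, with r from 0.991 to 0.939 over 12 tumors. Hp, haptoglobin, which fat secretes as an acute phase protein, ran from 2.99 RPKM in no-dox tumor 4 to 275 RPKM in plus-dox tumor 4. Scd1, the stearoyl-CoA desaturase, ran from 5.96 to 219 RPKM in the same 2 tumors. Among 35 other fat pathway genes, 5 passed r = 0.9. They were Adig, Scd1, Sncg, Slc36a2 and G0s2, an inhibitor of Pnpla2.

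No adipocyte gene differed between plus-dox and no-dox tumors by the study's limits, which ask for more than a 1.5-fold change at an adjusted p below 0.1 in genes longer than 250 bp whose mean RPKM exceeds 0.25. In this comparison 0.0% of the 17561 genes tested passed them in the edgeR fit used here. The study applied the limits to DESeq2 and reported its most significant expression differences between these groups. On these counts DESeq2 called 128 genes, or 90 with moderated fold changes, and no adipocyte gene. All 32 members entered the test, and the smallest adjusted p was 0.346 (edgeR). Dgat2 was the 1 member (3.12%) with an unadjusted p under 0.05, against 13.7% of all genes. Its log2 fold change was -0.89 ± 0.37 (SE, p = 0.034, adjusted p = 0.346, exact permutation p = 0.0571). Pparg had -0.67 ± 0.31 (edgeR p = 0.051, adjusted p = 0.368), and its exact permutation p on log2 CPM was 0.0286, the smallest possible with 70 arrangements. Agpat2 had -0.65 ± 0.36 (adjusted p = 0.427) and the same exact permutation p of 0.0286. In RPKM the groups did not overlap for Pparg, 1 of 32 members (3.12%) against 7.77% of all genes, while for Agpat2 plus-dox tumor 4 (33.6 RPKM) was above no-dox tumor 3 (33.0 RPKM). Gpd1 had -1.02 ± 0.54 (adjusted p = 0.413, exact permutation p = 0.0571).

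For the fat-specific genes the intervals were wide. The log2 fold change on dox was -0.26 for Adipoq (SE 1.33, 95% interval -3.16 to 2.64, adjusted p = 0.939), -0.66 for Plin1 (SE 1.34, -3.58 to 2.25, adjusted p = 0.827), -0.38 for Cidec (SE 0.98, adjusted p = 0.867), -0.39 for Lep (SE 1.33, adjusted p = 0.904) and -0.69 for Adrb3 (SE 0.78, adjusted p = 0.679). The data could not show a difference of several fold in either direction for Adipoq. Retn had -0.68 (SE 1.27, adjusted p = 0.814) and Pnpla2 -0.22 (SE 0.14, adjusted p = 0.487). The median over the 32 members was -0.36 in the fit, against 0.01 over all genes, and 27 fitted values were below 0. By mean log2 CPM, which weights each tumor equally, the median difference was 0.03 and only 14 of 32 were below 0, so the sign of the whole list depended on how tumors were averaged.

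Between off-dox and no-dox tumors, 1.34% of all genes passed the limits and none of the 32 adipocyte genes did. The smallest adjusted p was 0.149 (edgeR), that of Pnpla2. At an unadjusted p under 0.05 there were 4 members (12.5%), all lower off dox, against 20.4% of all genes. Pnpla2 had a log2 fold change of -0.42 ± 0.14 (SE, p = 0.014, adjusted p = 0.149) and was the only member whose groups did not overlap in RPKM (exact permutation p on log2 CPM = 0.0286), against 11.4% of all genes. Dgat2 had -1.02 ± 0.37 (adjusted p = 0.165, exact permutation p = 0.0571). Adrb3 had -1.92 ± 0.82 (adjusted p = 0.215, exact permutation p = 0.2) and Agpat2 -0.81 ± 0.36 (adjusted p = 0.234, exact permutation p = 0.0571). Retn had -2.86 ± 1.38 (adjusted p = 0.263, exact permutation p = 0.629). Outside the list, 6 of 35 other fat pathway genes had an unadjusted p under 0.05, again all lower and none called. They were Srebf1, Cebpd, Plin3, Rbp4, Fabp5 and Klb.

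**Figure D4:**
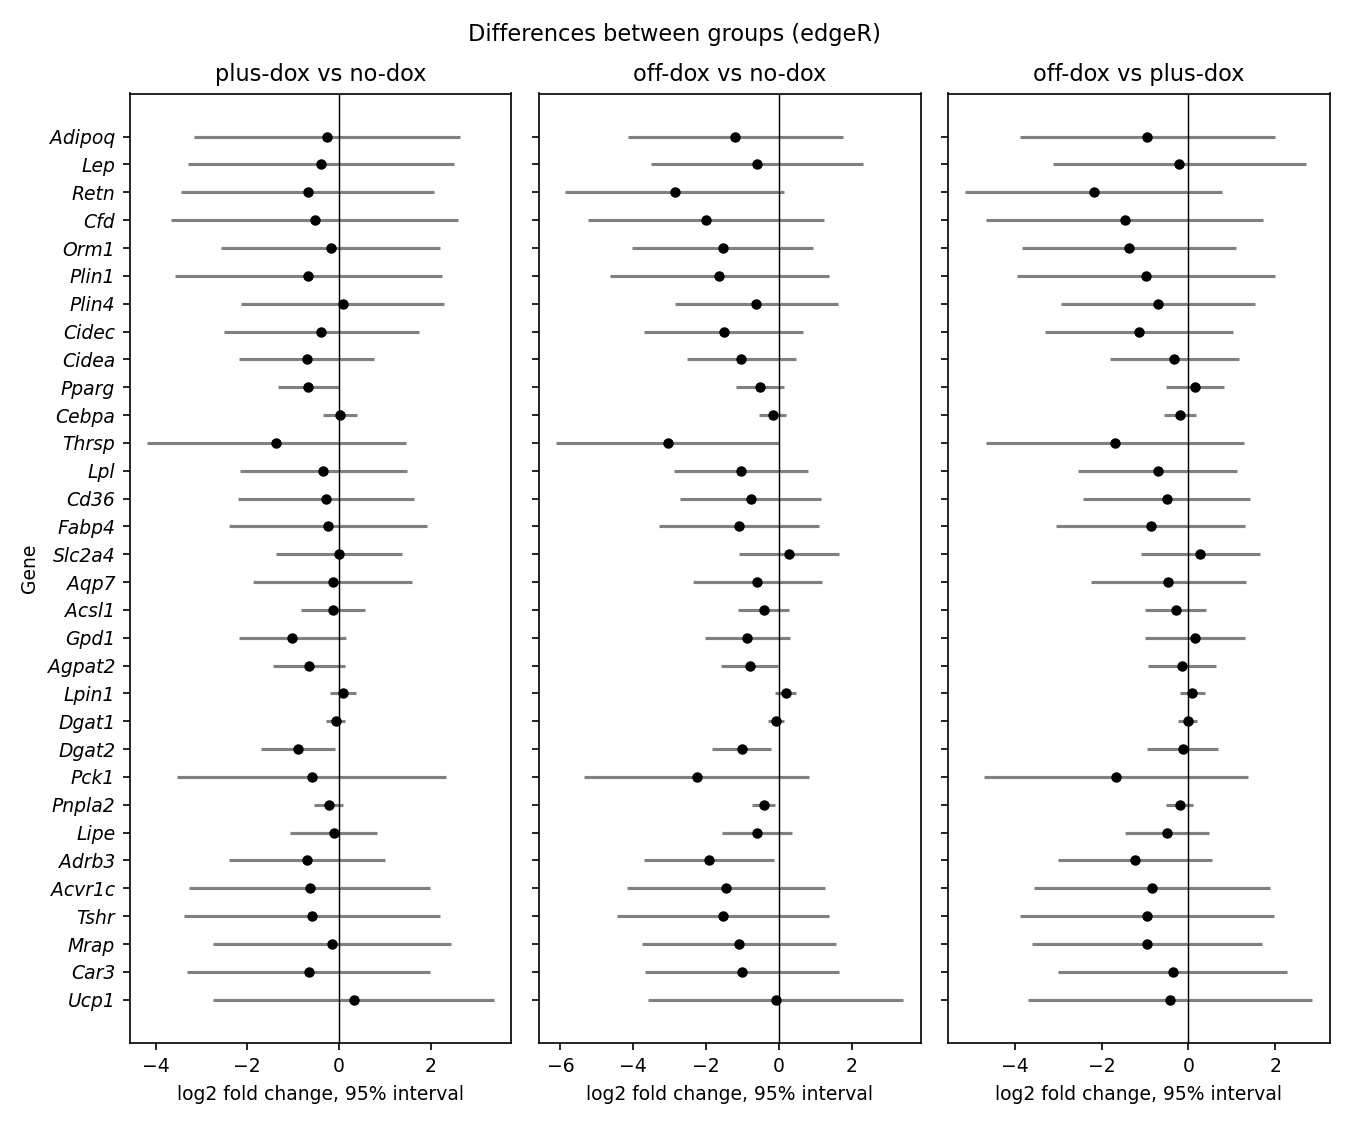
Log2 fold change of each adipocyte gene (points) with its 95% interval (lines) in the 3 comparisons, from edgeR. Most intervals cross 0, those of Adipoq, Plin1, Lep and Cfd span several log2 units, and those of Dgat1, Lpin1, Cebpa and Pnpla2 are narrow.

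For Adipoq the fitted change off dox was -1.20 (SE 1.36, 95% interval -4.16 to 1.75, adjusted p = 0.638), while the difference of mean log2 CPM was 0.18 (exact permutation p = 0.971), the opposite sign. The fitted changes of Plin1, Cidec and Lep were -1.64 (SE 1.38, adjusted p = 0.517), -1.52 (SE 1.00, adjusted p = 0.408) and -0.60 (SE 1.33, adjusted p = 0.823). Pparg had -0.52 (SE 0.31, adjusted p = 0.358) and Gpd1 -0.87 (SE 0.53, adjusted p = 0.372). Over all members the median was -1.02 in the fit, with 30 of 32 below 0, and -0.31 by mean log2 CPM, with 26 below 0. The off-dox group lacked tumors as fat-rich as no-dox tumors 1 and 3, and also lacked one as fat-poor as no-dox tumor 4. The mean of the 5 defining markers was 2.17 ± 2.81 log2 CPM (SD, n = 4) without dox, 2.17 ± 2.49 on dox and 1.77 ± 1.27 after its removal, differences of less than 1 SD. In these bulk samples, fewer fat cells and less RNA per fat cell cannot be told apart.

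Between off-dox and plus-dox tumors, 0.0% of all genes passed the limits and no adipocyte gene did. None of the 32 had an unadjusted p under 0.05, against 3.06% of all genes, and none had groups that did not overlap, against 1.49%. Retn had the largest difference, a log2 fold change of -2.19 ± 1.36 (SE, adjusted p = 1). Adipoq had -0.94 (SE 1.35), Plin1 -0.98 (SE 1.36), Cidec -1.13 (SE 1.00), Lep -0.21 (SE 1.34) and Adrb3 -1.23 (SE 0.81). Pnpla2, Dgat2, Pparg and Gpd1 had -0.20 (SE 0.14), -0.13 (SE 0.37), 0.15 (SE 0.31) and 0.15 (SE 0.53). The median over the members was -0.50 in the fit and -0.32 by mean log2 CPM.

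Since the amount of fat RNA varied so much, each gene was also compared at equal Adipoq, by adding the log2 CPM of Adipoq to the edgeR fit, a choice made after seeing the data. Then 2 of 32 members passed the limits between off-dox and no-dox tumors, Retn and Pck1, both lower off dox, against 1.79% of all genes. No member passed in the other 2 comparisons. For Retn the log2 fold change was -1.45 ± 0.39 (SE, adjusted p = 0.0915) and for Pck1 -1.04 ± 0.28 (adjusted p = 0.0915). The lower values were not particular to these genes. Of the other members, 9 also had an unadjusted p under 0.05 in this fit, all lower off dox and none called, so that 11 of 32 had one against 21.9% of all genes. The 9 were Pnpla2, Cfd, Cidec, Dgat2, Lpl, Adrb3, Thrsp, Lipe and Agpat2.

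The raw levels as a percentage of Adipoq show the same values in another form and are not separate support. Pck1 was at 20.1, 18.3, 36.5 and 47.1% of the Adipoq RPKM in the no-dox tumors, 28.4, 14.7, 20.6 and 20.3% in the plus-dox tumors, and 9.74, 12.6, 11.9 and 13.7% in the off-dox tumors. Every off-dox tumor was below every other tumor, for a gene picked from the fit of these same values. The margin was small, 13.7% in off-dox tumor 4 against 14.7% in plus-dox tumor 2. The share of all genes separated in this way was not computed. Some of these percentages rest on few counts. Pck1 and Adipoq had 5.0 and 5.0 counts in no-dox tumor 4, 7.0 and 16.0 in plus-dox tumor 3, and 6.0 and 29.0 in off-dox tumor 1. Retn was at 32.4, 37.2, 32.4 and 19.2% in the no-dox tumors, 28.5, 18.6, 44.0 and 24.4% in the plus-dox tumors, and 6.61, 10.9, 22.2 and 6.53% in the off-dox tumors. Off-dox tumor 3 overlapped the other groups, and the low no-dox value rests on 1 count of Retn. The low value of off-dox tumor 1 rests on 2.0 counts of Retn, and the high value of plus-dox tumor 3 on 7.3. Cfd was at 715 to 1058% in the no-dox and 565 to 717% in the off-dox tumors, with a log2 fold change at equal Adipoq of -0.47 ± 0.16 (adjusted p = 0.141). Plin1 was at 12.9 to 28.05% in the no-dox and 16.7 to 21.1% in the off-dox tumors (-0.31 ± 0.24, adjusted p = 0.468).

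**Figure D5:**
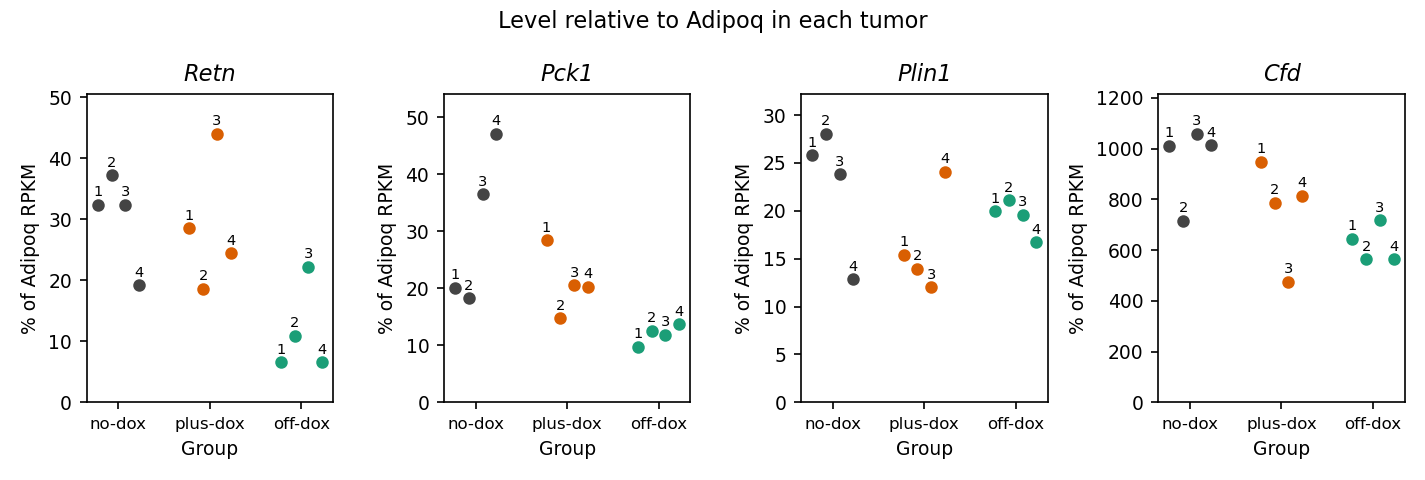
RPKM of Retn, Pck1, Plin1 and Cfd as a percentage of the Adipoq RPKM of the same tumor, with the replicate number beside each point. The off-dox tumors lie between 9.74 and 13.7% for Pck1, against 14.7% in the lowest other tumor, and between 6.53 and 22.2% for Retn. The groups overlap for Plin1 and, by a small margin off dox against no dox, for Cfd. Retn and Pck1 were picked from a fit of these same values, and some of their percentages rest on few counts.

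These 2 calls were fragile. Both were kept under RLE normalization, but with Plin1 in place of Adipoq as the measure of fat the log2 fold changes were -1.03 for Retn (adjusted p = 0.179) and -0.58 for Pck1 (adjusted p = 0.353), and neither passed. With limma-voom Retn passed (-1.60, adjusted p = 0.0342) and Pck1 did not (-0.86, adjusted p = 0.188). When any 1 tumor was omitted the values were from -1.96 to -1.15 for Retn and from -1.22 to -0.77 for Pck1, always lower off dox. Both calls held without plus-dox tumor 2 (adjusted p = 0.078 and 0.0743) and without off-dox tumor 1 (0.0788 and 0.0802). Without plus-dox tumor 1 Pck1 held (0.089) and Retn did not (0.104). Without any of the other 9 tumors neither held, with adjusted p of 0.124 to 0.224. That loss was mostly not particular to these genes. No gene at all passed without any 1 of no-dox tumors 1 to 4, plus-dox tumor 4 and off-dox tumors 2 and 3. Without plus-dox tumor 3 and off-dox tumor 4, 22 and 325 genes passed.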

How the data were processed

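RNA was measured in 12 tumors, 4 per group, by sequencing of polyadenylated RNA without strand information. The authors aligned the reads to mm9 with TopHat (version 1.4.1 per the submitters' processing notes) and counted them over 1 model per gene. The deposited expected counts are not normalized, and 58.2% of them are not whole within 0.001. The deposited RPKM values were scaled by the authors to exonic length and mapped reads. The members and all gene lists were chosen with earlier results of these data known.

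Counts were rounded and tested with edgeR (version 4.0.16, quasi-likelihood, TMM) in 1 fit of the 12 tumors, over 17561 genes with at least 10 summed counts, with Benjamini-Hochberg adjustment over all of them. Log2 CPM values have a prior count of 2. The fit was tested on simulated data before use. Single genes were compared by exact two-sided permutation tests of 70 arrangements, and correlations by 100000 permutations. All 32 members are accounted for. Full statistics are given for the 5 defining markers (Adipoq, Plin1, Cidec, Lep and Adrb3), called members and the 3 members of smallest p in each comparison, and Agpat2, Pck1, Srebf1, Cebpd, Plin3, Rbp4, Fabp5 and Klb were named after their values were seen.

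Alternatives were DESeq2 (version 1.42.0, fold changes moderated or not), limma-voom (limma version 3.58.1), RLE normalization, other count filters, fits of 8 tumors, a replicate block, an adjusted p under 0.05 and leaving out each tumor. Fits that hold Adipoq or Plin1 constant were chosen later, with the data in view. The genotype of the line is not reported in full here.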

Additional observations from a re-analysis of the deposited data

Results flagged for a closer look

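A single tumor stood apart from the other 3 of its group for 7 adipocyte genes, by the gap to its nearest neighbor as a share of the group's range in log2 CPM (Dixon's criterion at 95%). With 99 groups of values examined, about 1 in 20 would be picked out by chance. Plus-dox tumor 3 was low for Adipoq (share 0.861), Cfd (0.872) and Cidec (0.864). Adipoq there was at -0.70 log2 CPM against 4.88 to 5.78 in the other plus-dox tumors. Plus-dox tumor 2 was low for Cidea (0.839), at 0.42 log2 CPM against 3.76 to 4.41. Off-dox tumor 1 was low for Retn (0.952) and Car3 (0.938), with Retn at -2.52 log2 CPM, from 2 counts, against 1.08 to 1.27. Ucp1 was apart in plus-dox tumor 3 and off-dox tumor 3 (1.0 in both), with 5 and 3 counts, where the other tumors of these groups had 0.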

How the results depend on the processing

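The count of adipocyte genes called stayed at 0 under 61 of 66 alternatives, and all 5 changes were off dox against no dox. In many of the alternatives no gene at all passed the limits. A count of 0 was fixed there and says nothing about stability. Off dox against no dox, DESeq2 without moderated fold changes called 2 (Dgat2 and Adrb3, adjusted p 0.069 and 0.0968), DESeq2 with moderation called 1 (Dgat2), limma-voom called 1 (Agpat2) and the Adipoq covariate called 2 (Retn and Pck1). Leaving out each tumor gave 0 to 1 in that comparison, with Dgat2 called only without off-dox tumor 1 (adjusted p 0.066), and 0 in the other two. With the replicate block no gene at all was called in any comparison, adipocyte genes included. Over all genes, the off-dox against no-dox count of 235 became 615 with DESeq2 without moderation, 396 with it, 641 with limma-voom, 122 without a count filter, 365 with at least 10 counts in every tumor, 3 in the fit of 8 tumors, 0 with the replicate block and 0 to 789 when a tumor was left out. Plus dox against no dox, DESeq2 called 128 and 90 genes and limma-voom 112, where edgeR called 0. Off dox against plus dox, DESeq2 called 6 and 4. The requirement of 10 counts in every tumor left 19 members to test.

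The differences of the mean of the 5 markers moved by less than 1 SD under all 36 alternatives. When 1 tumor was left out they ranged from -1.11 to 1.22 for plus-dox against no-dox, from -1.52 to 0.45 for off-dox against no-dox and from -1.62 to 0.25 for off-dox against plus-dox. Several uncalled fold changes turned sign. Plus dox against no dox, Adipoq (-0.26) became 0.15 with limma-voom and 0.02 with the covariate, which is Adipoq itself, and ranged from -0.71 to 0.45 when a tumor was left out. The same ranges were -1.48 to 0.10 for Plin1, -0.77 to 0.21 for Cidec, -1.48 to 0.64 for Lep and -1.13 to 0.02 for Retn, all highest without no-dox tumor 1. Off dox against no dox, the covariate gave 0.06 for Adipoq and 0.40 for Lep, and Lep ranged from -1.35 to 0.43, highest without no-dox tumor 1. Off dox against plus dox, the covariate gave 0.04 for Adipoq, 0.23 for Plin1 and 0.74 for Lep. The replicate block gave 0.02 for Lep and -0.02 for Gpd1, and limma-voom -0.07 for Gpd1. Leaving out single tumors gave -0.96 to 0.88 for Lep, -0.47 to 0.15 for Dgat2, -0.10 to 0.34 for Pparg and -0.36 to 0.44 for Gpd1. The causes were not tested.

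Tumors of the same number did not deviate together as a rule (r from -0.36 to 0.45 over 12 pairs). Of the 12 tumors, 2 correlated best with one of their own number. This check is too small to settle whether equal numbers are paired, and the main fit took the replicate numbers as names only.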

Other observations

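Members of the list differed in how much of their RNA remained in the tumor poorest in Adipoq. In no-dox tumor 4, which had 5 counts of Adipoq, Gpd1 had 3501 counts, Agpat2 1160, Cidea 1073 and Pparg 1017, and Fabp4 had 275.0 and Lpl 411.9. Plin1, Retn, Mrap, Lep and Thrsp had 1 to 3 counts there. Adrb3 was at 0.343 RPKM in that tumor, within the 0.191 to 0.350 RPKM of the off-dox tumors, whose Adipoq level was 0.959 to 22.6 RPKM.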
